A study of Mus musculus with 6 samples.

Results

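The genes described here are 35 of the 55291 genes in a table of RNA counts from mouse bone marrow. They are the contractile proteins of smooth muscle, their relatives in other cells, and genes known as targets of the transcription factor SRF. They were chosen by name and taken from the rows that carry those symbols, and all 35 were found. The list was put together with results of the genotype contrast in view, so its differences between genotypes are given as a description and not as a test of the list. The samples are marrow flushed from the femurs of 3 P2rx7 knockout mice, labelled A, B and C, and of 3 wild-type mice, labelled 1, 2 and 3, all aged 6 to 8 weeks. P2rx7 encodes an ATP-gated ion channel, and the study asked how its loss affects bone. Each mouse gave 1 library, made from 1.3 µg of total RNA with a SMARTer mRNA kit. The strain, the sex, the agents given if any and the exons that the knockout allele lacks are not stated in the sources used here.

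Smooth muscle contracts when calcium signals switch on myosin light chain kinase, which phosphorylates the regulatory light chain of myosin and lets it pull on actin filaments. Tropomyosin, caldesmon, calponin and transgelin bind along those filaments, and alpha-actinin, filamin, vinculin and zyxin tie them to each other and to the membrane. Many of these genes carry a CArG box, the DNA site of SRF. SRF works with myocardin in smooth muscle and with the myocardin-related factors in many cell types, where the pool of free actin monomer holds those factors out of the nucleus. In marrow, smooth muscle surrounds the arterial vessels, while cytoplasmic actins, non-muscle myosins and most crosslinking proteins are made by nearly all cells.

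The promoter sequences are shown first because CArG boxes are the sequence feature that the list's name implies and the counts did not enter that search. RefSeq windows from 250 bases before to 50 bases after the gene start (GRCm38.p6) were at hand for 28 of the 35 genes. An exact CArG box is CC, then a run of A and T, then GG, 10 bases in all, and it has this form on both strands. One stood in the windows of 6 of the 28 genes (21.4%), against 488 of 27025 genes (1.81%) among all windows. Known SRF targets were chosen for the list, so a higher share was built into that choice and is not a test of it. The 6 genes are Actg1, Cnn2, Myl6, Myl9, Srf and Vcl. A CArG-like box, with 1 of the A or T positions changed to G or C, stood in the windows of Acta2, Myl9 and Mrtfa, which is 10.7% of the 28 genes against 9.69% of all genes. A match is only a string of letters, and no binding was measured. The boxes are in capitals below, each on the strand of its gene and read 5′ to 3′.
Srf, whose own promoter holds a pair of exact boxes, chr17:46556195-46556264, minus strand: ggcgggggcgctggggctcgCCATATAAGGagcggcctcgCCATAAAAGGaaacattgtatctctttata
Actg1, cytoplasmic gamma-actin, chr11:120348556-120348605, minus strand: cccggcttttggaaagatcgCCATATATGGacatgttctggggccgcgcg
Vcl, vinculin, chr14:20929151-20929200, plus strand: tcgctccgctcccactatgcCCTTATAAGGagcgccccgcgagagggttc
Cnn2, calponin 2, chr10:79988524-79988573, plus strand: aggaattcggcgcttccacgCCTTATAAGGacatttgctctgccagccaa
Myl9, the regulatory light chain, with an exact box and then a CArG-like box, chr2:156775283-156775394, plus strand: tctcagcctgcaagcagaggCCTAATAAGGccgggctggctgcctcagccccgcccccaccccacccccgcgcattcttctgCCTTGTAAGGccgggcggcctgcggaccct
Myl6, the essential light chain, chr10:128493040-128493069, minus strand: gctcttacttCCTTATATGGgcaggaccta
Acta2, smooth muscle alpha-actin, first CArG-like box, chr19:34255438-34255467, minus strand: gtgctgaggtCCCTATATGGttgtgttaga
Acta2, second CArG-like box, chr19:34255388-34255417, minus strand: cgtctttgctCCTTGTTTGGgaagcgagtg

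The boxes of Srf began 82 and 62 bases before the RefSeq start, and those of Acta2 began 84 and 34 bases before it. The distance was 90 bases for Actg1, 227 for Vcl, 56 for Cnn2 and 50 for Myl6. In Myl9 the exact box began 161 bases and the CArG-like box 99 bases before the start. The boxes of Myl6 and Acta2 fall within exons that the deposited table lists for those genes, and the other boxes shown lie upstream of all listed exons. Windows of 7 members were not used here, namely Actb, Actg2, Myh11, Tagln, Csrp2, Myocd and Itga7. The median log2 fold change, knockout over wild type, was -0.19 over the 6 genes with an exact box, -0.31 over the 22 with a window and no exact box, and -0.29 over the 7 without a window. The 22 include Acta2 and Mrtfa, which hold CArG-like boxes, and boxes outside the windows were not searched for. Of the 6 genes with an exact box, 4 are in the broadly expressed class described below. Whether the groups differ was not tested.

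Library totals were 18716704 to 23575652 counts. The targeted gene, P2rx7, kept 722 to 876 counts in knockout libraries against 1207 to 1453 in wild-type libraries, with log2 fold change -0.67 ± 0.05 (SE) and, in edgeR's quasi-likelihood test, an adjusted p of 0.0109. The libraries also differ in traces of other tissues. Growth hormone, Gh, was counted 23, 0 and 0 times in knockout libraries A, B and C and 54, 82 and 75 times in wild-type libraries 1, 2 and 3. Albumin, Alb, was counted 46 and 36 times in knockout libraries B and C and 0 times in the other libraries. Of 8 erythroid markers, 6 were under 1 FPKM in all 6 libraries, and Hba-a1, an alpha-globin gene named after its values were seen, had at most 2 counts in any library. The leukocyte gene Laptm5 averaged 385 ± 22.9 FPKM in knockout mice and 375 ± 13.6 FPKM in wild-type mice (SD, n = 3 each).

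Most of the contractile genes had lower values in knockout marrow than in wild-type marrow, but none passed the threshold. Of the 35 genes, all of which passed the filter on low counts, 33 had a negative log2 fold change (48.8% of the 15478 tested genes did) and 24 were lower at an unadjusted p under 0.05 (8.22% of tested genes). The differences were modest, between -0.85 for Myh10 and 0.09 for Mylk on the log2 scale, with a median of -0.30 beside 0.00 over all tested genes. The threshold was an adjusted p of 0.05 over all tested genes in edgeR's test, at which 16 genes were called (0.103%), 7 of them lower (0.0452%) and 9 higher (0.0581%) in knockouts. The adjusted p of the members ran from 0.0994 for Myh10 to 0.995 for Itga7. DESeq2 called 14 members, all lower, at a rate of 1.68% over tested genes, edgeR without a filter beyond 1 count called 18, at a rate of 1.49%, and limma on log2(FPKM + 1) called 0, with 21 lower at an unadjusted p under 0.05 (7.97% of tested genes). In 14 members every knockout lay below every wild type in counts scaled for library size (10.4% of tested genes), and in 0 members every knockout lay above (11.5%). These are bulk samples, in which fewer cells of a type and less RNA per cell cannot be told apart.

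**Figure D1:**
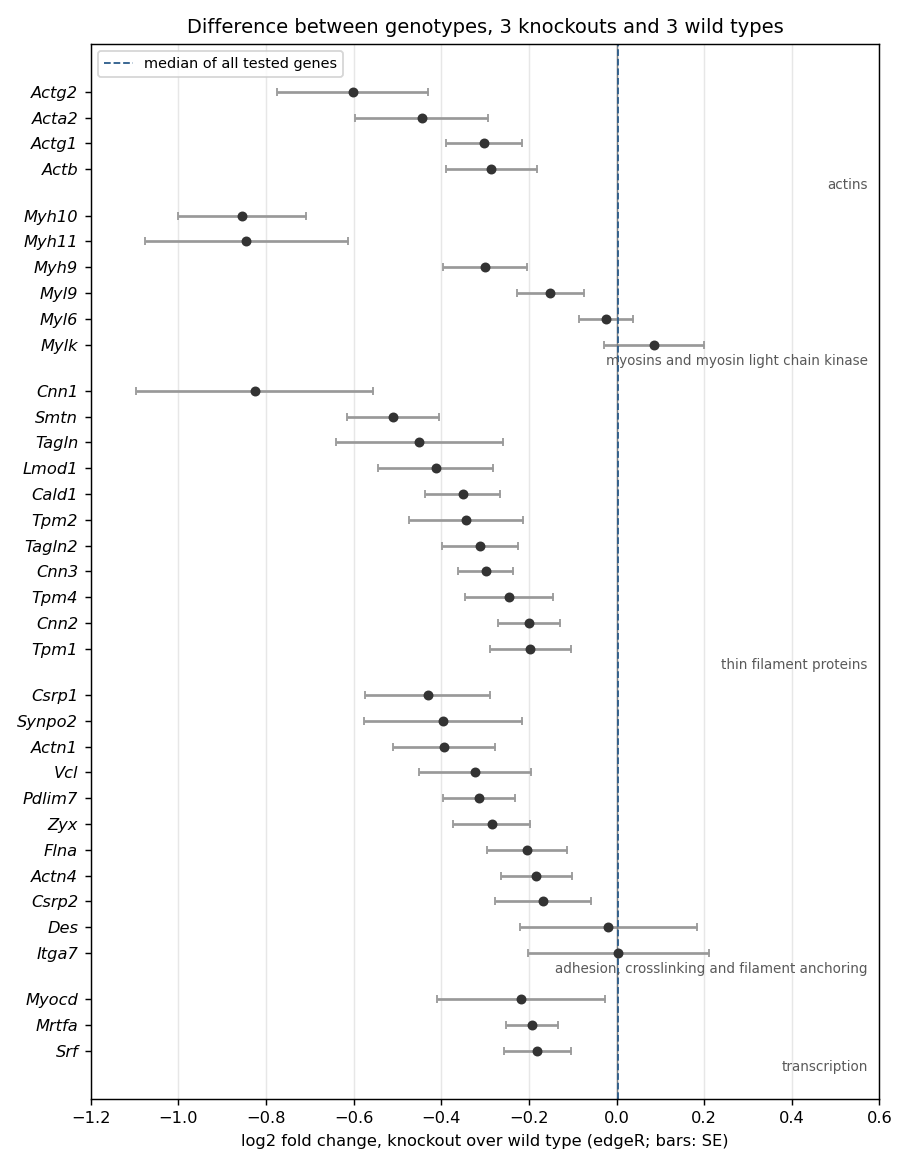
Log2 fold change, knockout over wild type, of the 35 genes by role (x axis), each point with its SE as a bar from edgeR's fit of 3 libraries of each genotype and a dashed line at the median of all tested genes, 0.00. Points lie between -0.85 for Myh10 and 0.09 for Mylk, and 33 of 35 lie left of 0.

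Of the 4 actins, Acta2 encodes the alpha-actin of vascular smooth muscle. It is on chromosome 19 (GRCm38, 34241090 to 34255590, minus strand), and it ranked 8 among all genes by mean wild-type FPKM, which is counts scaled for exon length and library size. It had 1655, 1416 and 1243 FPKM in knockouts A, B and C, against 1968, 2335 and 1598 FPKM in wild types 1, 2 and 3. Wild type 3 lay just below knockout A, so the groups overlap, and wild type 2 was highest. The mean was 1438 ± 207 FPKM in knockout mice and 1967 ± 369 FPKM in wild-type mice (SD, n = 3 each), a log2 fold change of -0.44 ± 0.15 (SE).

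Actg2, the gamma-actin of visceral smooth muscle, had 246, 184 and 190 FPKM in knockout mice and 309, 393 and 243 FPKM in wild-type mice, and its log2 fold change was -0.60 ± 0.17 (SE). The same libraries were extreme, with wild type 2 at the top and wild type 3 below knockout A. Actb, the cytoplasmic beta-actin often used as a constant control, had 1572, 1511 and 1384 FPKM in knockout mice against 1832, 2038 and 1606 FPKM in wild-type mice. Its groups do not overlap, and its log2 fold change was -0.29 ± 0.10 (SE). Actg1, the cytoplasmic gamma-actin, had 149, 135 and 124 FPKM in knockout mice and 164, 187 and 155 FPKM in wild-type mice, again with no overlap. The coding bases of the 4 actins are 81.9% to 88.7% identical, so reads shared between them could be counted for the wrong one.

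The ratio of Acta2 to Actb, per length, was 1.05, 0.937 and 0.898 in knockouts and 1.07, 1.15 and 0.995 in wild types. By the counted reads, some of which these actins may share, Acta2 RNA was about as abundant as Actb RNA in these libraries. In the same libraries 6 of 8 erythroid markers were under 1 FPKM, and whether the ratio holds in other marrow was not tested. These ratios overlap between genotypes.

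**Figure D2:**
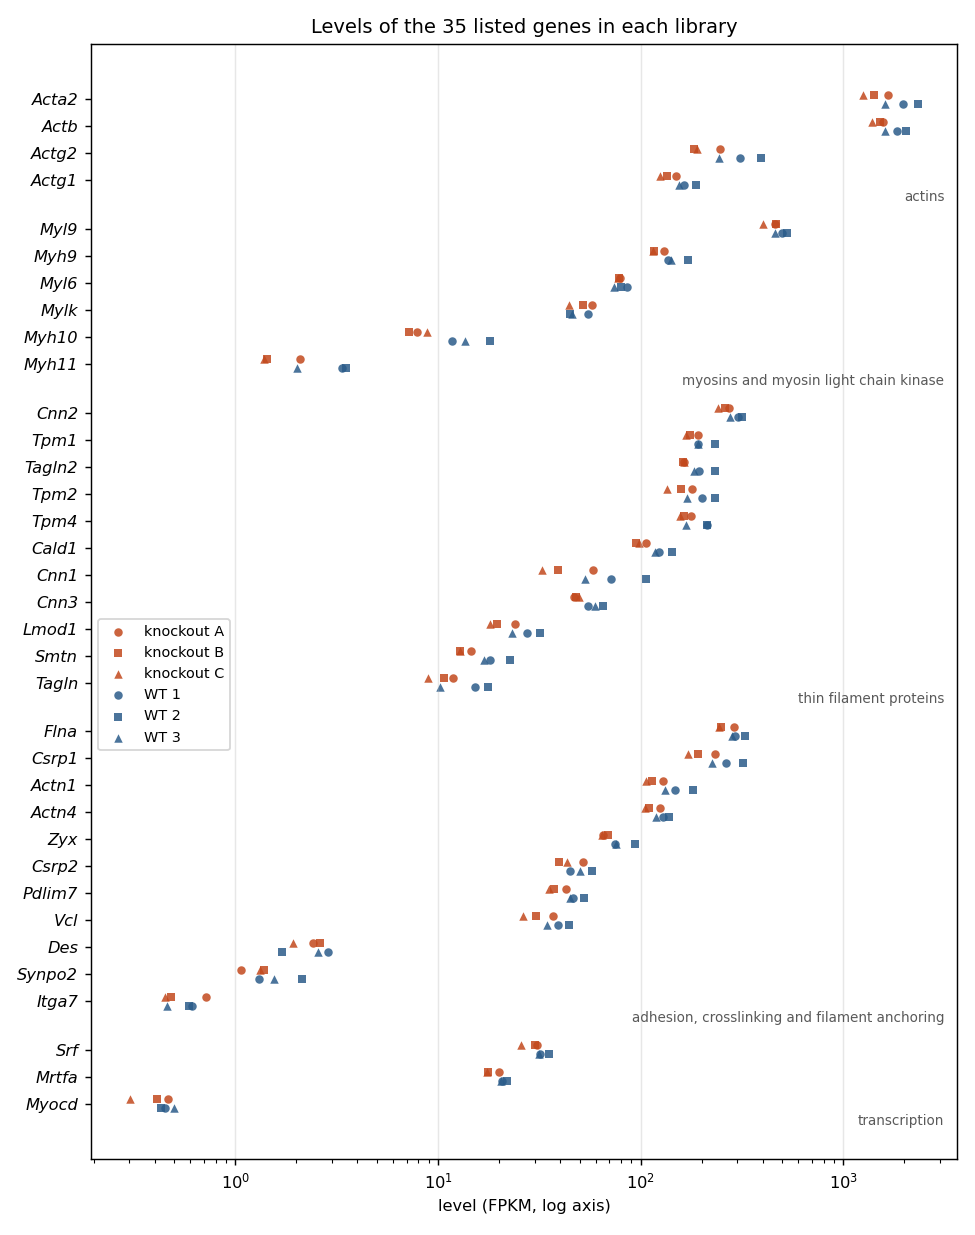
FPKM of each of the 35 genes in each library on a log axis (x axis), genes grouped by role, with knockout points above wild-type points and a shape for each library of a genotype. The genes cover a range from 0.302 FPKM (Myocd in knockout C) to 2335 FPKM (Acta2 in wild type 2).

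Among the myosins, the heavy chains differed most between genotypes and the light chains least. Myh10 encodes non-muscle myosin heavy chain IIB, which is found in many tissues but is scarce in blood cells. It lies on chromosome 11 (68691559 to 68816632, plus strand). It had 7.85, 7.20 and 8.78 FPKM in knockout mice, against 11.7, 18.04 and 13.6 FPKM in wild-type mice. Every knockout was below every wild type, with means of 7.94 ± 0.790 FPKM and 14.4 ± 3.27 FPKM (SD, n = 3 each) for knockouts and wild types, and the log2 fold change of -0.85 ± 0.15 (SE) was the lowest of the 35.

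Myh11, the heavy chain specific to smooth muscle, had 2.09, 1.43 and 1.38 FPKM in knockout mice and 3.36, 3.50 and 2.01 FPKM in wild-type mice. Wild type 3 fell just under knockout A, and the log2 fold change was -0.84 ± 0.23 (SE). These values rest on 206 to 352 counts in knockout libraries and 354 to 615 in wild-type libraries. Myh9, the main heavy chain of blood cells, had 130, 116 and 115 FPKM in knockout mice against 136, 170 and 141 FPKM in wild-type mice, which do not overlap, and its log2 fold change was -0.30 ± 0.10 (SE).

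The heavy chains thus lay far apart in level. Per length, Myh11 stood to Myh9 at a ratio of 0.0135 ± 0.00232 in knockouts and 0.0199 ± 0.00522 in wild types (SD, n = 3 each). The ratio of Myh10 to Myh9 was 0.0605, 0.0620 and 0.0762 in knockouts and 0.0855, 0.106 and 0.0970 in wild types, with no overlap. Acta2 exceeded Myh11 by a ratio of 895 ± 101 in knockouts and 682 ± 105 in wild types, so the actin and the heavy chain that mark smooth muscle were far from equal in RNA.

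The light chains and their kinase had the smallest differences of the myosin genes. Myl9, the regulatory light chain of smooth muscle and non-muscle myosin, ranked 3 among the members, at 462, 466 and 402 FPKM in knockout mice and 499, 526 and 460 FPKM in wild-type mice. Its groups overlap, and the log2 fold change was -0.15 ± 0.08 (SE). Myl6, the essential light chain, averaged 78.3 ± 0.996 FPKM in knockout mice and 80.03 ± 5.88 FPKM in wild-type mice (SD, n = 3 each). Mylk, the kinase that starts contraction, had 57.5, 52.1 and 44.0 FPKM in knockout mice and 54.8, 44.7 and 45.9 FPKM in wild-type mice, a log2 fold change of 0.09 ± 0.11 (SE), the highest of the 35.

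All 11 thin filament genes had negative log2 fold changes, from -0.83 for Cnn1 to -0.20 for Tpm1. Cnn1, the calponin of differentiated smooth muscle, had 57.9, 39.1 and 32.4 FPKM in knockout mice against 71.4, 106 and 53.1 FPKM in wild-type mice. It varied widely among wild types, and wild type 3 lay below knockout A. Its mean was 43.1 ± 13.2 FPKM in knockout mice and 76.9 ± 26.9 FPKM in wild-type mice (SD, n = 3 each). The more widely expressed calponins differed less, with log2 fold changes of -0.20 ± 0.07 for Cnn2 and -0.30 ± 0.06 for Cnn3 (SE), yet their groups do not overlap. Cnn3 had 47.1, 48.1 and 49.7 FPKM in knockout mice and 54.9, 64.8 and 59.4 FPKM in wild-type mice.

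Tagln, or SM22, an actin-binding protein and one of the earliest markers of the lineage, was scarce beside Acta2. It had 11.8, 10.7 and 8.95 FPKM in knockout mice and 15.3, 17.7 and 10.2 FPKM in wild-type mice, and the groups overlap. Of its 1988 exon bases, 67.9% are shared with exons of other genes, mostly Gm48529 on the other strand, and the strand used in counting is not stated in the labels, so its level is uncertain. Its ratio to Acta2 was 0.00729 ± 0.000200 in knockouts and 0.00725 ± 0.000731 in wild types (SD, n = 3 each). Tagln2, the form found in blood cells, had 163, 161 and 164 FPKM in knockout mice against 193, 234 and 182 FPKM in wild-type mice, with no overlap and almost no spread among knockouts.

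Smtn, smoothelin, a filament protein of contractile smooth muscle, had 14.6, 12.8 and 12.8 FPKM in knockout mice against 18.1, 22.6 and 16.9 FPKM in wild-type mice. The groups do not overlap, and the log2 fold change was -0.51 ± 0.11 (SE). Cald1, caldesmon, which restrains actomyosin, averaged 99.6 ± 6.17 FPKM in knockout mice and 128 ± 13.6 FPKM in wild-type mice (SD, n = 3 each) without overlap. Lmod1, leiomodin, which nucleates actin filaments in smooth muscle, had 24.1, 19.5 and 18.1 FPKM in knockout mice and 27.6, 31.9 and 23.1 FPKM in wild-type mice, and only wild type 3 fell within the knockout range.

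The tropomyosins Tpm1, Tpm2 and Tpm4, which lie along the actin filament, had knockout means of 179, 157 and 166 FPKM and wild-type means of 206, 200.4 and 197 FPKM. Neighbours in that order lay within the spread among mice. These levels are per summed exon length, which is 6485, 2909 and 4269 bases, so how the 3 genes compare depends on that length. Their log2 fold changes were -0.20 ± 0.09, -0.34 ± 0.13 and -0.24 ± 0.10 (SE), and in each of them the groups overlap. Tpm2, the form richest in muscle, had 179, 158 and 134 FPKM in knockout mice and 201, 232 and 169 FPKM in wild-type mice.

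The genes that crosslink filaments or anchor them to adhesions had a median log2 fold change of -0.29 over 11 genes, 10 of them negative. Actn1, the alpha-actinin of stress fibres, had 129, 113 and 106 FPKM in knockout mice against 148, 180 and 132 FPKM in wild-type mice. Every knockout was below every wild type, and the log2 fold change was -0.39 ± 0.12 (SE). Actn4, its close relative with 80.7% identical coding bases, averaged 113 ± 9.99 FPKM in knockout mice and 129 ± 9.83 FPKM in wild-type mice (SD, n = 3 each), and its groups overlap. The ratio of Actn1 to Actn4 was 1.04, 1.03 and 1.02 in knockouts and 1.15, 1.30 and 1.11 in wild types, with no overlap. Whether the genotypes differ in this ratio was not tested.

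Csrp1, a LIM-domain protein that binds alpha-actinin and zyxin and is rich in smooth muscle, had 232, 192 and 172 FPKM in knockout mice and 263, 321 and 224 FPKM in wild-type mice. Wild type 3 again lay below knockout A, and the log2 fold change was -0.43 ± 0.14 (SE). Zyx, zyxin, which gathers at strained adhesions, had 65.3, 69.3 and 64.5 FPKM in knockout mice against 75.02, 93.6 and 75.4 FPKM in wild-type mice, with no overlap. Pdlim7, a scaffold that links kinases to actin filaments, averaged 38.3 ± 3.81 FPKM in knockout mice and 47.9 ± 4.14 FPKM in wild-type mice (SD, n = 3 each), also with no overlap.

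Vcl, vinculin, which couples integrins to actin, had 37.1, 30.3 and 26.2 FPKM in knockout mice and 38.9, 44.1 and 34.6 FPKM in wild-type mice, which overlap. Its exons share 25.5% of their bases with other genes, mostly Ap3m1 on the other strand. Flna, filamin A, which joins actin filaments into networks, averaged 260 ± 24.04 FPKM in knockout mice and 301 ± 23.9 FPKM in wild-type mice (SD, n = 3 each), and Csrp2, a relative of Csrp1, averaged 44.9 ± 6.26 FPKM in knockout mice and 50.8 ± 6.34 FPKM in wild-type mice. Both genes overlap between genotypes.

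The muscle-restricted anchors were scarce. Synpo2 had a log2 fold change of -0.40 ± 0.18 (SE), while Des, at -0.02 ± 0.20 (SE), and Itga7 lay near 0. Des, desmin, the intermediate filament of muscle, had 2.41, 2.62 and 1.92 FPKM in knockout mice and 2.85, 1.69 and 2.55 FPKM in wild-type mice, and here wild type 2 was the lowest library. Synpo2, which bundles actin at muscle Z-discs, had 1.07, 1.38 and 1.33 FPKM in knockout mice and 1.30, 2.14 and 1.55 FPKM in wild-type mice. Itga7, a laminin-binding integrin chain of muscle, had 128, 74 and 73 counts in knockouts and 99, 110 and 86 counts in wild types, a log2 fold change of 0.00 ± 0.21 (SE). For all 3 genes the groups overlap.

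Of the transcription genes, Srf itself had 30.8, 30.2 and 25.7 FPKM in knockout mice against 31.9, 35.4 and 31.5 FPKM in wild-type mice. The groups do not overlap, though knockouts A and B came close to the lowest wild types, and the log2 fold change was -0.18 ± 0.08 (SE). Mrtfa, the actin-monomer sensing partner of SRF, had 19.9, 17.6 and 17.3 FPKM in knockout mice and 20.8, 21.8 and 20.5 FPKM in wild-type mice, also without overlap. The ratio of Mrtfa to Srf was 0.635 ± 0.0473 in knockouts and 0.639 ± 0.0186 in wild types (SD, n = 3 each). Myocd, myocardin, the partner that drives the smooth muscle programme, was the scarcest member, with 66, 50 and 39 counts in knockouts and 58, 64 and 74 counts in wild types. Its groups overlap, and at this depth its log2 fold change of -0.22 ± 0.19 (SE) is little more than 1 SE from 0.

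The members were split by where they are known to be expressed. The 15 smooth muscle-enriched genes had a median of -0.41 for the log2 fold change, and the 17 broadly expressed genes had -0.29. Every knockout was below every wild type in 2 of the 15 enriched genes, Cald1 and Smtn, and in 10 of the 17 broad genes, beside 10.4% of tested genes, and the difference between these classes was not tested. The summed FPKM of the enriched genes was 3052, 2651 and 2360 in knockouts and 3557, 4182 and 2967 in wild types, where wild type 3 lies below knockout A. For the broad genes the sums were 3526, 3306 and 3111 in knockouts and 3958, 4448 and 3604 in wild types, which do not overlap. All 35 genes took 2.28%, 2.11% and 1.98% of the counts in knockouts and 2.57%, 2.89% and 2.30% in wild types.

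**Figure D3:**
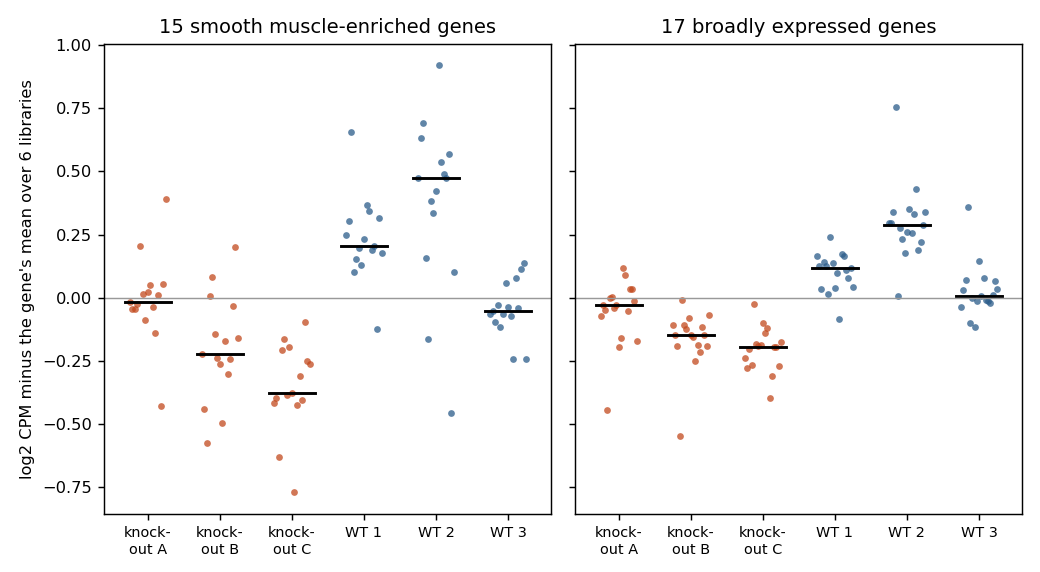
Deviation of each gene from its mean over the 6 libraries, in log2 counts scaled for library size, by library, with knockouts left of wild types 1 point a gene, a bar at the median and separate panels for the smooth muscle-enriched and broadly expressed genes. The medians of the enriched genes are -0.02, -0.22 and -0.38 in knockouts A, B and C and 0.21, 0.47 and -0.05 in wild types 1, 2 and 3.

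Wild type 2 was the highest library for 29 of the 35 (82.9%), against 24.6% of all tested genes. Knockout C was the lowest for 26 (74.3%), against 16.9% of all tested genes. Relative to each gene's mean over the libraries, the median deviation of the enriched genes was -0.02, -0.22 and -0.38 on the log2 scale in knockouts A, B and C, against 0.21, 0.47 and -0.05 in wild types 1, 2 and 3. Knockout A and wild type 3 therefore sat side by side in the middle. For the broad genes the medians were -0.03, -0.15 and -0.19 in knockouts and 0.12, 0.29 and 0.00 in wild types, with smaller steps, and here wild type 3 lay just above knockout A rather than below it.

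**Figure D4:**
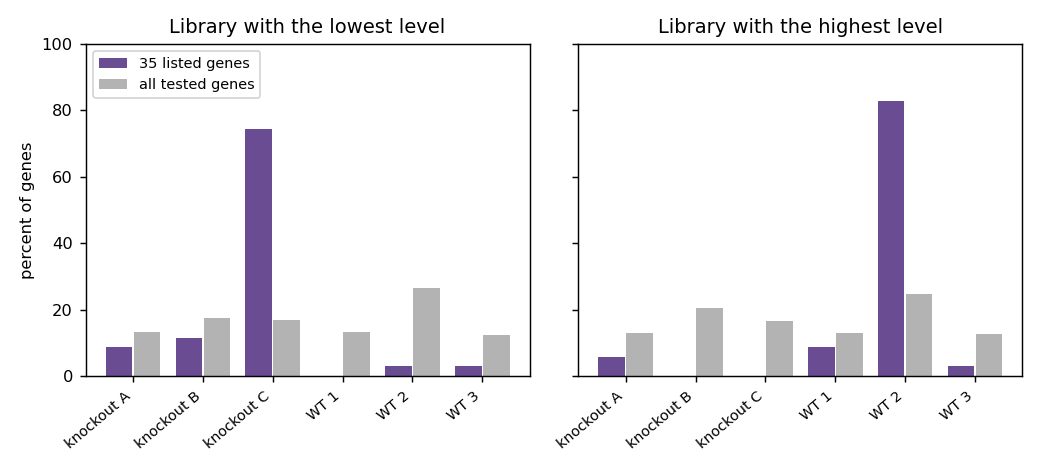
Percent of genes for which each library is the lowest or the highest, for the 35 genes beside all 15478 tested genes, knockouts left of wild types. Wild type 2 is the highest for 82.9% of the 35 genes and knockout C the lowest for 74.3%, against 24.6% and 16.9% of all tested genes.

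The size of the genotype difference varied with the library left out. Without wild type 2 the median log2 fold change of the enriched genes was -0.28 and that of the broad genes -0.20, and Myh10 passed the threshold (adjusted p = 0.0350 by edgeR's quasi-likelihood test). In that fit 45 genes were called in all, and 0.0767% of tested genes were called lower. Without knockout C the medians were -0.34 for the enriched and -0.24 for the broad genes. The median of the enriched genes was -0.54 without knockout A and -0.53 without wild type 3. Without wild type 3, Myh11 and Smtn passed it, with a lowest adjusted p of 0.0473 by the same test, where 0.550% of tested genes were called lower. Leaving out any 1 of the other libraries called 0 members. At an unadjusted p under 0.05, 18 members were lower without wild type 1 (7.55% of tested genes), 28 without knockout A (8.67%), 14 without knockout B (4.69%) and 13 without knockout C (5.31%).

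The traces of growth hormone and albumin split the libraries into wild types 1, 2 and 3 with knockout A, and knockouts B and C. The second set holds knockouts only. Within the first set, knockout A against the wild types, 30 of 35 members had negative log2 fold changes (52.1% of tested genes did), with a median of -0.26 over the enriched and -0.18 over the broad genes. There edgeR called 0 members, with 2 lower at an unadjusted p under 0.05 (1.88% of tested genes), and the lone knockout is assumed to vary like the wild types. When all 6 libraries were fitted with a set term, the medians were -0.25 and -0.17, 30 of 35 were negative (50.9% of tested genes), 0 were called and 6 were lower at an unadjusted p under 0.05 (2.69%). Whether the set of libraries has a part in the difference was not tested.

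Other genes tied to the same pathways were taken from lists of known genes. Of 20 further smooth muscle genes, 17 were tested, edgeR's test called 0, and 6 were lower and 4 higher in knockouts at an unadjusted p under 0.05, with a median log2 fold change of -0.33. Of all tested genes 16.6% were at that p in either direction. Members of this list went both ways. Fhl1, a LIM-domain protein of muscle, averaged 33.9 ± 1.29 FPKM in knockout mice and 35.2 ± 0.907 FPKM in wild-type mice, and Aoc3, an amine oxidase of smooth muscle and fat cells, averaged 38.4 ± 2.25 FPKM in knockout mice and 29.0 ± 5.34 FPKM in wild-type mice (SD, n = 3 each), with every knockout above every wild type.

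Among 19 other targets of SRF and its partners, 0 were called, and the median log2 fold change was -0.15. At an unadjusted p under 0.05, 6 were lower (8.22% of tested genes) and 0 higher. Thbs1, thrombospondin 1, a secreted matrix protein, had 1060, 873 and 889 FPKM in knockout mice against 1326, 1602 and 1294 FPKM in wild-type mice. Its groups do not overlap, and its log2 fold change of -0.57 ± 0.12 (SE) was larger in size than that of Acta2. Ccn1, another secreted matrix protein, averaged 397 ± 23.2 FPKM in knockout mice and 444 ± 31.4 FPKM in wild-type mice (SD, n = 3 each), which overlap.

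The partners of SRF were read beside it. Of 6 tested partners of SRF, 0 were called, and their median log2 fold change was -0.04. At an unadjusted p under 0.05, 2 were lower (8.22% of tested genes) and 0 higher. Elk3, an ETS factor that binds beside SRF, averaged 20.5 ± 1.002 FPKM in knockout mice and 24.2 ± 2.65 FPKM in wild-type mice, and Fli1, another ETS factor, averaged 19.9 ± 0.870 FPKM in knockout mice and 19.9 ± 0.127 FPKM in wild-type mice (SD, n = 3 each).

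**Figure D5:**
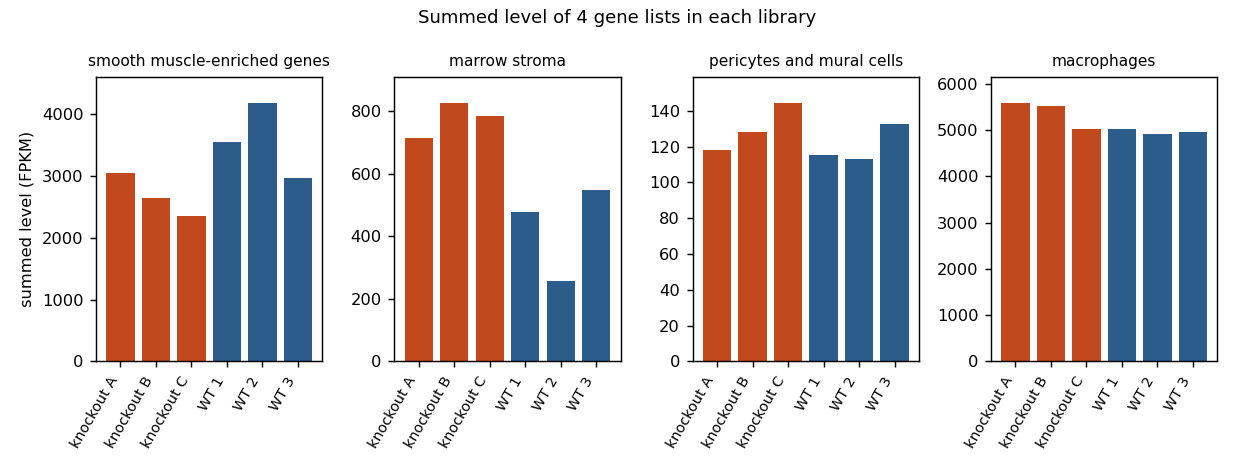
Summed FPKM (bars, y axis from 0) of 4 gene lists in each library, with knockouts left of wild types: the smooth muscle-enriched genes and markers of marrow stroma, pericytes and mural cells, and macrophages. The enriched contractile genes reach 4182 in wild type 2, the library in which the marrow stroma markers are lowest, at 257.

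Markers of cells that share these genes were read beside them. The summed level of 10 pericyte and mural cell markers was 118, 128 and 144 FPKM in knockout mice and 115, 113 and 133 FPKM in wild-type mice. At an unadjusted p under 0.05, 1 marker was lower and 3 were higher in knockouts, beside 1272 and 1292 of all 15478 tested genes. This list does not follow the contractile genes, being highest in knockout C. The markers at that p, named after their values were seen, were Rgs5, a regulator of G-protein signalling, Kcnj8, a potassium channel, and Notch3, a Notch receptor, with log2 fold changes of 1.06 ± 0.39, 1.01 ± 0.37 and 0.42 ± 0.18 (SE), and Cspg4, the proteoglycan NG2, with -0.55 ± 0.17 (SE). The genotypes overlap in all 4 of them. The genes of highest level in the list are Pdgfrb, a growth factor receptor, at 74.7 ± 7.83 FPKM in knockout mice and 70.3 ± 6.20 FPKM in wild-type mice, and Mcam, an adhesion protein, at 18.4 ± 1.95 FPKM in knockout mice and 18.3 ± 1.51 FPKM in wild-type mice (SD, n = 3 each). Of 12 skeletal muscle markers, 8 were under 1 FPKM in all libraries and 3 of those were at 0. The skeletal actin Acta1, whose reads could be mistaken for those of Acta2, averaged 3.63 ± 1.12 FPKM in knockout mice and 5.80 ± 2.42 FPKM in wild-type mice. Cardiac markers summed to 1.03, 3.94 and 3.02 FPKM in knockout mice and 1.23, 0.709 and 1.36 FPKM in wild-type mice.

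The marrow stroma list went the other way from the contractile genes. Its 10 markers summed to 713, 825 and 783 FPKM in knockout mice and 478, 257 and 547 FPKM in wild-type mice, and wild type 2, the highest library for contractile genes, was the lowest here. Cxcl12, the chemokine of stromal cells that retains blood stem cells, averaged 553 ± 52.3 FPKM in knockout mice and 293 ± 116 FPKM in wild-type mice (SD, n = 3 each). Adipoq, the fat cell hormone that marrow stromal cells also make, had 81.1, 71.9 and 59.1 FPKM in knockout mice and 31.7, 8.51 and 36.6 FPKM in wild-type mice. At an unadjusted p under 0.05, 6 of the 10 markers were higher and 0 lower in knockouts, beside 1292 and 1272 of all 15478 tested genes. In edgeR's test 0 of these markers passed the threshold. Their part in the contractile genes' difference was not tested.

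Blood cell lists varied in ways of their own. Macrophage markers summed to 5584, 5523 and 5017 FPKM in knockout mice and 5017, 4909 and 4948 FPKM in wild-type mice, and 1 of the 10 passed the threshold, Cd163, a scavenger receptor, lower in knockouts (log2 fold change -0.74 ± 0.09 SE, adjusted p = 0.0486 by edgeR's quasi-likelihood test). Of the 10, 8 had positive log2 fold changes (7924 of 15478 tested genes did), with a median of 0.14. At an unadjusted p under 0.05, 3 were higher and 1 was lower, beside 1292 higher and 1272 lower of all tested genes. Megakaryocyte and platelet markers, from cells rich in Myh9, Flna and Tpm4, summed to 272, 369 and 331 FPKM in knockout mice and 348, 306 and 293 FPKM in wild-type mice. Of 12 tested markers of this list, 11 had positive log2 fold changes, with a median of 0.96. At an unadjusted p under 0.05, 1 was higher and 0 were lower in knockouts. Wild type 1 was the lowest library for 11 of the 12, against 13.4% of all tested genes. Its sum was still the highest of the wild types. Neutrophil markers summed to 60.9, 369 and 352 FPKM in knockout mice and 312, 119 and 403 FPKM in wild-type mice, low in knockout A and in wild type 2. Endothelial markers summed to 18.1, 30.9 and 35.1 FPKM in knockout mice and 17.8, 19.6 and 35.5 FPKM in wild-type mice, highest in wild type 3 and knockout C. The part of these lists in the contractile genes' difference was not tested. Of 7 tested osteoblast markers, 0 passed the threshold in edgeR's test, 5 had positive log2 fold changes, and 2 were higher and 1 lower in knockouts at an unadjusted p under 0.05. The lower one, the bone matrix gene Col1a1, averaged 1236 ± 61.4 FPKM in knockout mice and 1489 ± 176 FPKM in wild-type mice. The higher ones, Alpl and Sp7, named after their values were seen, encode a phosphatase and a transcription factor of osteoblasts and had log2 fold changes of 0.75 ± 0.24 and 0.55 ± 0.17 (SE). Of 7 tested fibroblast markers, 0 passed, and 2 were higher and 0 lower at that unadjusted p, and the collagen Col3a1 averaged 274 ± 47.8 FPKM in knockout mice and 265 ± 31.4 FPKM in wild-type mice (SD, n = 3 each).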

How the data were processed

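The authors deposited 1 table of 55291 genes with exon positions, summed exon length, raw counts per gene and FPKM for the 6 libraries, per the file headers. Dividing each count by exon length and by a scaled library size gives back the deposited FPKM, with a scaled size of 0.982 to 1.02 times the column total. Per the submitters' processing notes the build is GRCm38, also called mm10. No source used here names the aligner, the counter, the annotation or the strand used in counting. The design text says that different mice were used, and the labels pair no samples.

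Counts were filtered with filterByExpr (15478 genes kept), scaled by TMM and tested with the quasi-likelihood test of edgeR 4.0.16 in R 4.3.3, two-sided, with Benjamini-Hochberg adjustment over all tested genes. The fit was first tested on simulated counts with known changes. Alternatives were RLE and upper-quartile scaling, no filter beyond 1 count, DESeq2 1.42.0, limma 3.58.1 on log2(FPKM + 1) and log2(FPKM + 0.1), leaving out each library, and the library sets marked by Gh and Alb. Levels are FPKM, and orders of libraries use TMM-scaled counts. Promoter windows came from RefSeq. A protein table was not used here, so identities between relatives are those of the longest open reading frames of GENCODE transcripts, aligned with Biopython 1.88, in place of the planned protein alignment.

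The members, the gene lists and the alternatives were chosen with earlier results of these data known. All 35 members could be named, and the rule for each other list was at most 3 genes past the threshold or else the 2 of highest mean FPKM. Hba-a1, Rgs5, Kcnj8, Notch3, Cspg4, Alpl and Sp7 were named outside that rule, after their values were seen. The scarcest members, such as Myocd and Itga7, rest on few counts, and how far depth limits their precision was not tested. A further list of signalling genes is not reported here.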

Additional observations from a re-analysis of the deposited data

How the results depend on the processing

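The number of called genes depended on the method more than the direction of the contractile genes did. Of the 35 genes, 30 kept the sign of their log2 fold change under all 14 alternatives. The fit within the 4 libraries and the fit with a set term both compare knockout A with the wild types. They are therefore not separate checks. Over all tested genes edgeR called 16. That number was 970 on all genes with at least 1 count, 496 with DESeq2, 10 and 2 with limma on log2(FPKM + 1) and log2(FPKM + 0.1), 0 within the 4 libraries with growth hormone counts, 0 with a set term, and 0 to 172 without 1 library. Of the members, 18 were called on all genes with at least 1 count, 14 with DESeq2 and 0 to 2 without 1 library. The medians of the enriched and broad genes stayed negative, at -0.54 to -0.25 and -0.34 to -0.17. The other 5 members changed sign 17 times in all. Itga7 was at -0.00078 with RLE scaling, -0.0016 without the filter, -0.0028 with DESeq2, -0.0061 and -0.023 with limma at pseudocounts of 1 and 0.1, and between -0.23 and 0.13 without 1 library. Without 1 library, Myl6 ran from -0.078 to 0.028 and Des from -0.22 to 0.14. In the 4 libraries Des was at 0.021, Csrp2 at 0.022 and Myocd at 0.0067, and with the set term they were at 0.024, 0.025 and 0.0096. The causes were not tested. No paired analysis was possible because no label pairs a knockout with a wild type. Myocd, Itga7 and Des are the members with the fewest counts, with SE of 0.19, 0.21 and 0.20 in the main fit. Cnn1, with 1780 to 6723 counts, had a larger SE of 0.27. The part of depth in these SE was not tested.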
